A study of Mus musculus with 22 samples.

Results

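The 10 genes described here encode the 4 Rag GTPases (*Rraga*, *Rragb*, *Rragc* and *Rragd*), the 5 subunits of Ragulator (*Lamtor1* to *Lamtor5*) and the lysosomal transporter *Slc38a9*. They were taken by symbol from a table of read counts for 55573 mouse genes, in which each symbol had 1 row. In GENCODE M21 (GRCm38) *Rragd* (ENSMUSG00000028278) lies on chromosome 4 from 32983037 to 33022180, *Rragc* (ENSMUSG00000028646) on chromosome 4 from 123917446 to 123936997, *Rraga* (ENSMUSG00000070934) on chromosome 4 from 86575668 to 86577285 as a single exon, and *Rragb* (ENSMUSG00000041658) on chromosome X from 153139981 to 153171943, all on the plus strand. The other members lie on chromosomes 7 (*Lamtor1*), 3 (*Lamtor2*, *Lamtor3* and *Lamtor5*), 5 (*Lamtor4*) and 13 (*Slc38a9*), and the counts cover all exons of each gene. The table covers 22 livers of C57BL/6 mice, 1 library per mouse, and its 4 groups cross genotype with diet. All mice carried the Albumin-Cre transgene, which is expressed in hepatocytes. Cre mice had wild-type *Flcn*, and liver-*Flcn*-/- mice were Flcn f/f, so that the recombinase removes an exon of *Flcn* where the transgene is active, and the files do not show which cells of the organ recombined. On chow with 10 kcal percent fat there were 6 Cre mice and 5 liver-*Flcn*-/- mice, and on the methionine and choline deficient (MCD) diet, a model of steatohepatitis with fibrosis, there were 5 Cre mice and 6 liver-*Flcn*-/- mice. Feeding started when the mice were 6 weeks old, the MCD diet lasted 6 weeks, and the mice of all groups were 3 months old at collection.

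Rag GTPases sit on the lysosome as pairs of RagA or RagB with RagC or RagD, and Ragulator is the scaffold that holds each pair on the lysosomal membrane. When amino acids are plentiful the pair brings the kinase complex mTORC1 to the lysosome, and SLC38A9 reports arginine inside the lysosome to it. Folliculin, the product of *Flcn*, works with FNIP1 or FNIP2 on RagC and RagD, and the nucleotide state that it sets lets mTORC1 phosphorylate the transcription factors TFEB and TFE3 and keep them in the cytosol. These factors, with MITF and TFEC, form the MiT-TFE family, which binds the letters CACGTG in promoters of many lysosomal genes.

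The promoter windows of the 3 Rag genes that were higher in liver-*Flcn*-/- mice are shown to set the letters that MiT-TFE factors bind beside the levels of these genes. Each window covers the start site in RefSeq and mostly the bases before it (GRCm38.p6, plus strand), and capitals mark CACGTG, which reads the same on both strands. *Rragb* lies at chrX:153139708-153140007, *Rragc* at chr4:123917183-123917482 and *Rragd* at chr4:32982748-32983047.
Rragb: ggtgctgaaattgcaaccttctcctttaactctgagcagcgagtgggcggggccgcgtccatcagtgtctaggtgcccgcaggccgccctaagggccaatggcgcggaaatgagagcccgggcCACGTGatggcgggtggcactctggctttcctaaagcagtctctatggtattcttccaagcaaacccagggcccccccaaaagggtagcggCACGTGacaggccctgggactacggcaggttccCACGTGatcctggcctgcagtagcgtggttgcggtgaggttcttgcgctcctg
Rragc: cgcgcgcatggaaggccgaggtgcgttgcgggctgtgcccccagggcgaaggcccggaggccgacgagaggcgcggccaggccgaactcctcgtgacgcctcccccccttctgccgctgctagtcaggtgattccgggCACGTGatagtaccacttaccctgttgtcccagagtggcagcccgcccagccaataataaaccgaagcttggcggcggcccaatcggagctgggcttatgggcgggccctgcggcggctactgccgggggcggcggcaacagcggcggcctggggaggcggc
Rragd: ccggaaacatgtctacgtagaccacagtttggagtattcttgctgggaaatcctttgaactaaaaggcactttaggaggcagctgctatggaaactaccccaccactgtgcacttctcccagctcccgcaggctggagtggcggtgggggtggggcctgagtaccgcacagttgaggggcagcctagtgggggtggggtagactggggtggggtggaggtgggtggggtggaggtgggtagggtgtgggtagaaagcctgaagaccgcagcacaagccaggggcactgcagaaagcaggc
The *Rragb* window held CACGTG 3 times, starting 127, 36 and 3 bases before the start site, and the *Rragc* window held it once, 112 bases before. The *Rragd* window did not hold these letters. Of the 9 members with a window in RefSeq (all but *Lamtor3*), 4 held CACGTG: these 2, *Lamtor1* once (68 bases before the start site) and *Lamtor4* at 2 places (120 and 104 bases before). Each match had a T before it or an A after it (TCACGTG or CACGTGA), the flank of the longer MiT-TFE element. Among all 32817 windows of this length, 7.149% held CACGTG and 3.763% held TCACGTG or CACGTGA, which are included in the former. A match describes letters and is not a measured binding site.

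The Cre libraries held 15276157 to 19417246 gene reads on chow and 18201287 to 21144388 on MCD, and the liver-*Flcn*-/- libraries 13751347 to 19645473 on chow and 16616132 to 20706657 on MCD. Levels are given as CPM, counts brought to a common library size with TMM factors. An edgeR adjusted p is the two-sided p of its quasi-likelihood test after Benjamini-Hochberg adjustment over 14062 genes. Some libraries stood apart. In 5 chow libraries (Cre mice 1, 5 and 6 and liver-*Flcn*-/- mice 1 and 3) the uniquely mapped share was under 75%, and by *Xist* and Y-linked genes these were also the 5 chow libraries read as male, so that mapping and sex cannot be told apart on chow. In 5 of the 12 libraries read as female (Cre mouse 2 and liver-*Flcn*-/- mice 2 and 4 on chow, Cre mouse 1 and liver-*Flcn*-/- mouse 3 on MCD) Y-linked reads summed to between 6.15 and 15.6% of the median of the male libraries, against at most 1.77% in the other females. Cre mouse 3 on MCD held skeletal muscle RNA, with 2664 CPM summed over 8 muscle genes led by *Myh1*, where the other libraries held between 0.972 and 132 CPM. Sex is not in the labels.

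The targeted gene was checked first. *Flcn* was at 27.7, 31.5, 32.0, 26.1, 32.7 and 40.2 CPM in Cre mice on chow and at 24.2, 19.96, 16.7, 19.4 and 21.8 CPM in liver-*Flcn*-/- mice on chow. The 2 groups did not overlap, and the log2 fold change was -0.63 (SE 0.173, edgeR adjusted p = 0.025). On MCD *Flcn* was at 31.7, 18.2, 39.9, 32.5 and 23.6 CPM in Cre mice and at 17.6, 26.6 and 32.6 CPM (lowest, median and highest) in liver-*Flcn*-/- mice, with a log2 fold change of -0.16 (SE 0.17, edgeR adjusted p = 0.57). These 2 groups overlapped almost throughout, so on MCD the whole-gene count does not separate the genotypes. The count covers all exons and all liver cell types, while the deletion removes 1 exon where Cre is active. The call on chow was lost in edgeR without Cre mouse 6 (-0.56, adjusted p = 0.057), without liver-*Flcn*-/- mouse 3 (-0.57, adjusted p = 0.066) or mouse 4 (-0.62, adjusted p = 0.068), without the 5 chow libraries under 75% unique mapping (-0.55, adjusted p = 0.24) and without the 5 female libraries with Y-linked reads (-0.60, adjusted p = 0.21).

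*Rragd*, which encodes RagD, differed most among the members and rose with the loss of *Flcn* on both diets. It was at 1.502, 2.55, 2.59, 2.31, 2.57 and 1.53 CPM in Cre mice on chow and at 41.7, 17.2, 40.5, 37.9 and 28.6 CPM in liver-*Flcn*-/- mice on chow. The lowest liver-*Flcn*-/- mouse on chow was far above every Cre mouse on either diet. The level was 15.0-fold higher in liver-*Flcn*-/- mice on chow (log2 fold change 3.91, SE 0.252, edgeR adjusted p = 7.8e-10), from raw counts of 19 to 42 in Cre mice and 290 to 688 in liver-*Flcn*-/- mice. Of the 14062 genes tested, 46 had a larger log2 fold change.

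On MCD *Rragd* was at 7.58, 5.82, 9.89, 3.83 and 6.71 CPM in Cre mice and at 70.1, 58.3, 45.5, 69.4, 51.6 and 74.3 CPM in liver-*Flcn*-/- mice. Again no liver-*Flcn*-/- mouse came near a Cre mouse. The level was 9.09-fold higher (log2 fold change 3.18, SE 0.242, edgeR adjusted p = 2.5e-08), and 29 genes had a larger log2 fold change. The highest Cre mouse, at 9.89 CPM, was the liver with skeletal muscle RNA, and without it the log2 fold change was 3.36. Leaving out each mouse in turn gave log2 fold changes between 3.82 and 4.08 on chow and between 3.04 and 3.36 on MCD. Exact permutation tests on log2(CPM + 0.5) gave p = 0.00433 on each diet, the smallest p that 6 against 5 mice allow, and 0.0127 after adjustment over 44 such tests.

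The MCD diet raised *Rragd* in both genotypes, 3.07-fold in Cre mice (log2 fold change 1.62, SE 0.25, edgeR adjusted p = 1.3e-05) and 1.86-fold in liver-*Flcn*-/- mice (log2 fold change 0.89, SE 0.218, edgeR adjusted p = 0.0021). Chow and MCD did not overlap within either genotype. The difference between these responses, the interaction of genotype and diet, was -0.73 (95% interval -1.41 to -0.04) and did not pass (edgeR adjusted p = 0.17). The 4 groups therefore formed a ladder without overlap, from Cre mice on chow over Cre mice on MCD and liver-*Flcn*-/- mice on chow to liver-*Flcn*-/- mice on MCD. Within each sex read from the counts the order of genotypes was the same on chow, with at most 2.59 CPM in Cre females against at least 17.2 CPM in liver-*Flcn*-/- females, and at most 2.57 CPM against at least 40.5 CPM in males.

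*Rragc*, which encodes the paralog RagC, rose under the same conditions by less. It was at 41.8, 47.6 and 54.2 CPM (lowest, median and highest) in Cre mice on chow and at 66.8, 55.5, 62.7, 63.0 and 59.7 CPM in liver-*Flcn*-/- mice on chow. On MCD it was at 63.5, 59.3, 62.2, 66.9 and 67.8 CPM in Cre mice and at 86.4, 94.4 and 112 CPM (lowest, median and highest) in liver-*Flcn*-/- mice. The genotypes did not overlap on either diet, nor did the diets in either genotype, while Cre mice on MCD and liver-*Flcn*-/- mice on chow had much the same range. The log2 fold change between genotypes was 0.38 on chow (SE 0.0761, edgeR adjusted p = 0.0027) and 0.60 on MCD (SE 0.0764, edgeR adjusted p = 1.6e-05). The diet response was 0.43 in Cre mice (SE 0.0759, edgeR adjusted p = 5.8e-05) and 0.65 in liver-*Flcn*-/- mice (SE 0.0766, edgeR adjusted p = 7.1e-07), and the interaction of 0.22 did not pass (edgeR adjusted p = 0.21). Without the 5 chow libraries under 75% unique mapping the change on chow was 0.36 with an adjusted p of 0.052 from edgeR.

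*Rraga*, which encodes RagA, passed in none of the 4 comparisons. It was at 33.6, 37.7 and 39.9 CPM (lowest, median and highest) in Cre mice on chow, at 45.6, 47.1, 35.5, 37.7 and 47.4 CPM in Cre mice on MCD, at 39.4, 37.3, 44.1, 42.2 and 42.5 CPM in liver-*Flcn*-/- mice on chow and at 35.3, 38.8 and 47.1 CPM in liver-*Flcn*-/- mice on MCD. Each pair of groups overlapped. The log2 fold change between genotypes was 0.14 on chow (95% interval -0.05 to 0.33, edgeR adjusted p = 0.38) and -0.09 on MCD (95% interval -0.28 to 0.10, edgeR adjusted p = 0.56), and those with diet were 0.19 in Cre mice (edgeR adjusted p = 0.074) and -0.04 in liver-*Flcn*-/- mice (edgeR adjusted p = 0.78). The diet response in Cre mice passed without Cre mouse 3 on MCD (edgeR adjusted p = 0.020), the liver with muscle RNA, without Cre mouse 4 on MCD (0.042), with a filter of at least 10 counts in every library (0.026) and with the uniquely mapped share as a covariate (0.029).

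*Rragb*, which encodes RagB, was close to the detection limit, with a mean count under 10, and was the only member that the filter on low counts removed. Its raw counts were 0, 5, 2, 1, 0 and 0 in Cre mice on chow and 6, 7, 8, 38 and 19 in liver-*Flcn*-/- mice on chow. On MCD they were 1, 9, 4, 1 and 3 in Cre mice and 7, 10, 13, 29, 30 and 9 in liver-*Flcn*-/- mice. The groups did not overlap on chow and overlapped in 1 Cre mouse on MCD, and the 3 Cre mice at 0 on chow were the 3 read as male. In a fit without the filter (32124 genes) the log2 fold change between genotypes was 3.32 on chow (SE 0.693, edgeR adjusted p = 0.0045) and 2.19 on MCD (SE 0.613, edgeR adjusted p = 0.028), where 2.33% of the genes in that fit were called higher on chow and 3.06% on MCD. With each mouse left out in turn the difference passed on chow in 22 of 22 fits, but its size moved from 2.73 without liver-*Flcn*-/- mouse 4 to 4.31 without Cre mouse 2. On MCD it lay between 1.90 and 2.79 and passed in 17 of 22 fits, failing without Cre mouse 1, 4 or 5 or liver-*Flcn*-/- mouse 4 or 5 on MCD, with an adjusted p of up to 0.085 from edgeR. The diet responses in that fit were 0.87 in Cre mice (edgeR adjusted p = 0.46) and -0.26 in liver-*Flcn*-/- mice (edgeR adjusted p = 0.84).

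**Figure D1:**
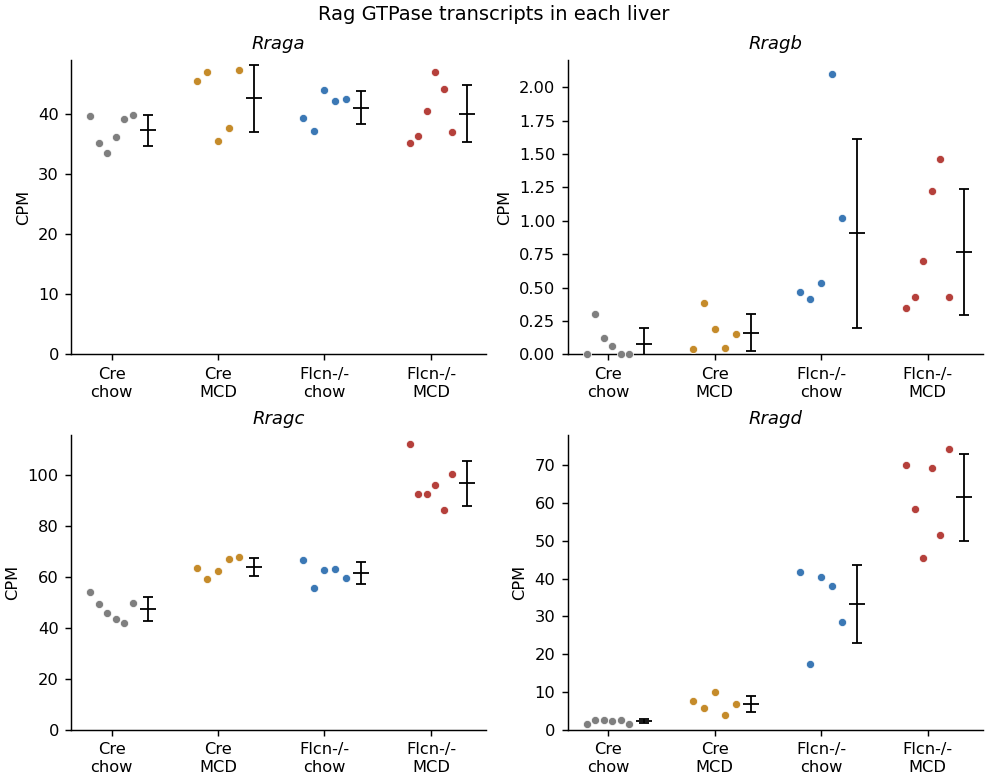
Level of the 4 Rag GTPase genes in CPM (y axis, linear, from 0) in each of the 22 livers by group (x axis), with 1 point per mouse and the mean ± SD beside each group. *Rragd* climbs over 4 groups that do not overlap, *Rragc* climbs by less, *Rraga* overlaps between all groups and *Rragb* does not exceed 2.10 CPM.

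Within each Rag class the balance of paralogs shifted with genotype. Per kb of exon, *Rragd* made up 2.93% ± 0.863 of the summed *Rragc* and *Rragd* level in Cre mice on chow (SD, n = 6), beside 25.3% ± 5.32 in the liver-*Flcn*-/- mice on chow (SD, n = 5). On MCD the share was 6.40% ± 2.09 in Cre mice (SD, n = 5) and 29.0% ± 3.00 in liver-*Flcn*-/- mice (SD, n = 6). *Rragc* thus remained the more abundant transcript of its class in each of the 22 livers. The genotypes differed by 22.4 percentage points on chow and 22.6 on MCD, without overlap (two-sided exact permutation p = 0.00433 for each, and 0.00433 after adjustment over the 4 share comparisons). *Rragd* was singled out after its values were seen, and the share is built from the levels given above. Its p is therefore no separate support, and the share describes the size of the shift. The share of *Rragb* in *Rraga* plus *Rragb* was on average 0.166% in Cre mice on chow, 1.53% in liver-*Flcn*-/- mice on chow, then on MCD 0.270% in Cre mice against 1.29% in liver-*Flcn*-/- mice (two-sided exact permutation p = 0.00433 on each diet, n = 5 or 6 per group). These means rest on the few *Rragb* counts given above, and 1 liver-*Flcn*-/- mouse on chow reached 3.44%.

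Summed over each class, *Rragc* plus *Rragd* was at 14.6 ± 1.29 CPM per kb in Cre mice on chow (SD, n = 6), 20.4 ± 0.991 in Cre mice on MCD (SD, n = 5), 24.8 ± 3.21 in liver-*Flcn*-/- mice on chow (SD, n = 5) and 40.9 ± 4.49 in liver-*Flcn*-/- mice on MCD (SD, n = 6). *Rraga* plus *Rragb* stayed between group means of 23.1 and 26.5 CPM per kb. The ratio of the 2 classes, *Rragc* plus *Rragd* over *Rraga* plus *Rragb*, was 0.634, 0.785, 0.963 and 1.66 on average in the same order of groups. The C and D class was therefore the lower one in each mouse of the first 2 groups (ratio of at most 0.931) and the higher one in each liver-*Flcn*-/- mouse on MCD (ratio of at least 1.28). These are transcript levels, which depend on the exon length used for each gene.

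**Figure D2:**
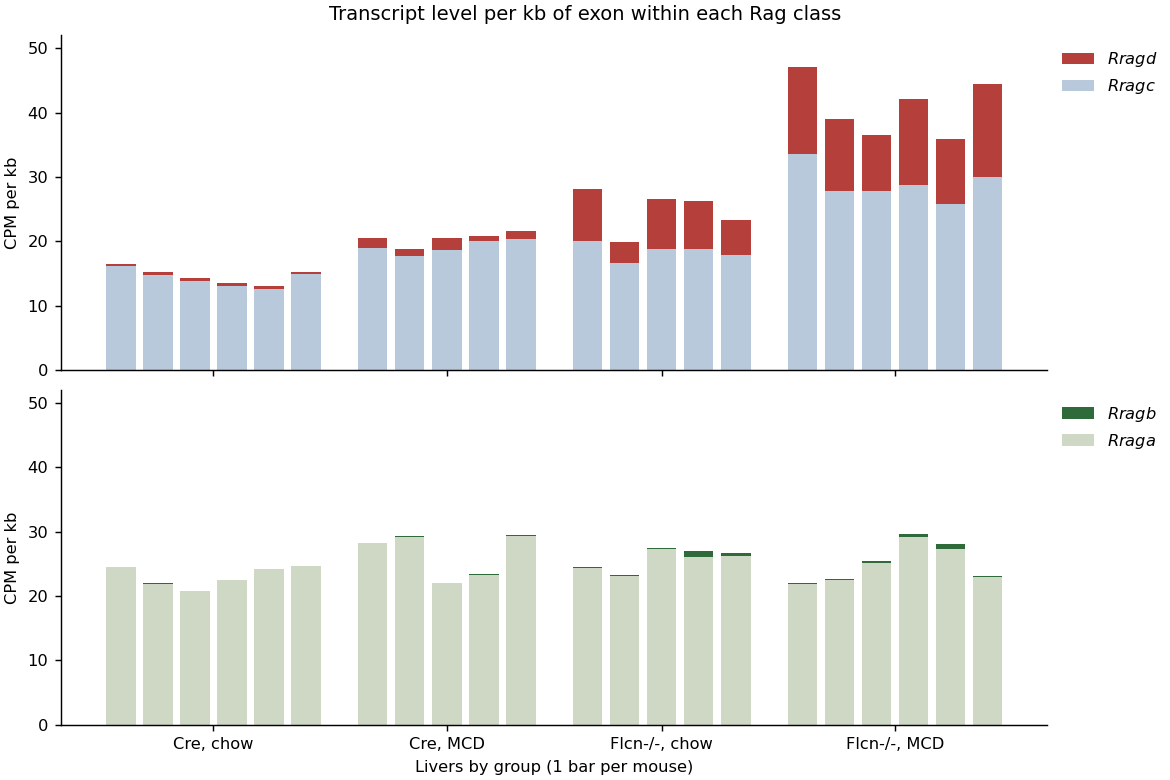
Transcript level in CPM per kb of exon (y axes, linear, from 0) of *Rragc* and *Rragd* stacked (top) and of *Rraga* and *Rragb* stacked (bottom), with 1 bar per mouse in the 4 groups (x axis). The *Rragd* part of the bar averages 2.93% in Cre mice but 25.3% in liver-*Flcn*-/- mice on chow, while the *Rraga* bars have group means between 23.1 and 26.4 CPM per kb.

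Ragulator subunits moved less, and not all one way. *Lamtor1*, the lipid-anchored subunit that ties Ragulator to the membrane, was at 41.1, 49.2 and 53.5 CPM (lowest, median and highest) in Cre mice on chow and at 65.2, 50.9, 50.1, 60.8 and 51.8 CPM in liver-*Flcn*-/- mice on chow. On MCD it was at 53.6, 65.3, 43.5, 57.6 and 62.0 CPM in Cre mice and at 63.5, 72.8 and 78.6 CPM in liver-*Flcn*-/- mice. It was highest in liver-*Flcn*-/- mice on MCD, which lay above every Cre mouse on chow, and overlapped Cre mice on MCD and liver-*Flcn*-/- mice on chow. The log2 fold change between genotypes was 0.35 on MCD (SE 0.101, edgeR adjusted p = 0.020) and 0.20 on chow (SE 0.101, edgeR adjusted p = 0.23), and with diet it was 0.37 in liver-*Flcn*-/- mice (SE 0.101, edgeR adjusted p = 0.0052) and 0.22 in Cre mice (edgeR adjusted p = 0.067). The genotype call on MCD was lost without Cre mouse 3 on MCD, the liver with muscle RNA and the lowest value (0.27, edgeR adjusted p = 0.053), without Cre mouse 1 on MCD (adjusted p = 0.051) and without the 5 female libraries with Y-linked reads (adjusted p = 0.14), which also ended the diet call in liver-*Flcn*-/- mice (adjusted p = 0.062). The diet response in Cre mice passed without Cre mouse 3 on MCD (edgeR adjusted p = 0.0095) or Cre mouse 4 on chow (0.049), and with at least 10 counts in every library (0.030). Of its exon bases 18.7% overlap *Lrrc51* on the other strand, which had 776 reads over the 22 libraries, and 20.7% of its possible 75-base reads also occur in other genes, so part of its count is uncertain.

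*Lamtor2* and *Lamtor3*, the pair of roadblock subunits that form one core of the complex, went opposite ways. *Lamtor2* was at 63.7, 66.2 and 70.2 CPM in Cre mice on chow (lowest, median and highest), at 49.6, 46.9, 41.4, 52.9 and 52.9 CPM in Cre mice on MCD, at 57.7, 54.9, 50.2, 50.6 and 52.4 CPM in liver-*Flcn*-/- mice on chow and at 39.5, 41.7 and 54.1 CPM in liver-*Flcn*-/- mice on MCD. Cre mice on chow lay above all other livers. *Lamtor2* fell by 0.44 with MCD in Cre mice (SE 0.0846, edgeR adjusted p = 0.00013), by 0.25 with MCD in liver-*Flcn*-/- mice (SE 0.084, edgeR adjusted p = 0.018, exact permutation p = 0.039 and 0.0779 after adjustment over 44 tests, with overlap) and by 0.32 with genotype on chow (SE 0.0845, edgeR adjusted p = 0.021), all on the log2 scale. The change of -0.13 between genotypes on MCD did not pass (edgeR adjusted p = 0.33). The genotype call on chow was lost without liver-*Flcn*-/- mouse 3 (edgeR adjusted p = 0.053) or mouse 4 (0.064), without the 5 chow libraries under 75% unique mapping (0.15), without the 5 female libraries with Y-linked reads (0.16) and in the fit without the filter on low counts (0.093). In that last fit and without the 5 low-mapping libraries the diet call in liver-*Flcn*-/- mice was lost too (edgeR adjusted p = 0.059 and 0.081).

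*Lamtor3* was at 11.9, 12.4 and 14.2 CPM (lowest, median and highest) in Cre mice on chow, at 17.0, 19.95, 19.2, 18.1 and 18.5 CPM in Cre mice on MCD, at 16.8, 13.4, 18.1, 17.3 and 16.5 CPM in liver-*Flcn*-/- mice on chow and at 19.2, 21.0 and 23.8 CPM in liver-*Flcn*-/- mice on MCD. Diets did not overlap within either genotype, and on chow the genotypes overlapped in 1 mouse of each group. It rose with MCD by 0.56 in Cre mice (SE 0.0826, edgeR adjusted p = 7.7e-06) and by 0.38 in liver-*Flcn*-/- mice (SE 0.0825, edgeR adjusted p = 0.0008), and with genotype by 0.38 on chow (SE 0.0833, edgeR adjusted p = 0.0051), on the log2 scale. On MCD the genotypes differed by 0.20 (95% interval 0.03 to 0.37, edgeR adjusted p = 0.097), with overlapping groups and an exact permutation p of 0.0173 (0.0381 after adjustment over 44 tests). Without the 5 low-mapping libraries the change on chow was again 0.38, with an adjusted p of 0.085 from edgeR. Of its possible 75-base reads, 4.21% also occur in *Gm5900*.

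*Lamtor4* and *Lamtor5* form the other roadblock pair. *Lamtor4* was at 41.3, 47.4 and 53.7 CPM (lowest, median and highest) in Cre mice on chow, at 40.8, 44.99, 36.9, 49.8 and 51.9 CPM in Cre mice on MCD, at 56.7, 38.3, 39.8, 42.8 and 39.1 CPM in liver-*Flcn*-/- mice on chow and at 41.1, 49.99 and 64.2 CPM in liver-*Flcn*-/- mice on MCD. All its groups overlapped and none of its 4 comparisons passed (edgeR adjusted p between 0.092 and 0.56). Its diet response in liver-*Flcn*-/- mice was 0.26, and passed without liver-*Flcn*-/- mouse 1 on chow (0.37, edgeR adjusted p = 0.014), the high value of 56.7 CPM, without liver-*Flcn*-/- mouse 1 on MCD (0.32, edgeR adjusted p = 0.040) and without the 5 low-mapping libraries (0.37, edgeR adjusted p = 0.038) or with the uniquely mapped share as a covariate (0.34, edgeR adjusted p = 0.033).

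*Lamtor5* was at 19.8, 22.8 and 29.3 CPM (lowest, median and highest) in Cre mice on chow, at 16.5, 21.5, 17.1, 20.5 and 18.6 CPM in Cre mice on MCD, at 24.4, 21.4, 23.6, 17.5 and 20.5 CPM in liver-*Flcn*-/- mice on chow and at 21.5, 22.7 and 24.3 CPM in liver-*Flcn*-/- mice on MCD. The Cre mice on MCD held the lowest median. *Lamtor5* fell by 0.32 with MCD in Cre mice (SE 0.0996, edgeR adjusted p = 0.0089), and its change in liver-*Flcn*-/- mice was 0.08 (edgeR adjusted p = 0.53). The difference between these responses, 0.40, did not pass (SE 0.141, edgeR adjusted p = 0.075), and was 0.57 without the 5 low-mapping libraries (edgeR adjusted p = 0.048) and 0.46 without Cre mouse 2 on MCD (edgeR adjusted p = 0.044). Between genotypes on MCD *Lamtor5* differed by 0.27 (SE 0.0992, edgeR adjusted p = 0.065), with an exact permutation p of 0.00433 (0.0127 after adjustment over 44 tests). These 2 groups all but touched, at 21.503 CPM in the highest Cre mouse and 21.517 CPM in the lowest liver-*Flcn*-/- mouse. The edgeR difference passed without Cre mouse 2 on MCD (adjusted p = 0.034), Cre mouse 4 on chow (0.040) or liver-*Flcn*-/- mouse 4 on chow (0.049), all from edgeR. Of its possible 75-base reads, 8.77% also occur in *Gm15190*.

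*Slc38a9* passed in none of the 4 comparisons either. It was at 10.2, 12.3 and 13.7 CPM (lowest, median and highest) in Cre mice on chow, at 10.6, 12.8, 12.6, 11.6 and 9.89 CPM in Cre mice on MCD, at 14.9, 11.1, 14.1, 13.0 and 11.6 CPM in liver-*Flcn*-/- mice on chow and at 9.26, 11.6 and 15.0 CPM in liver-*Flcn*-/- mice on MCD. The 4 groups covered nearly the same range. Its log2 fold changes lay between -0.09 and 0.09 in the 4 comparisons (edgeR adjusted p between 0.58 and 0.71), with 95% intervals that reached from -0.34 to 0.34.

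**Figure D3:**
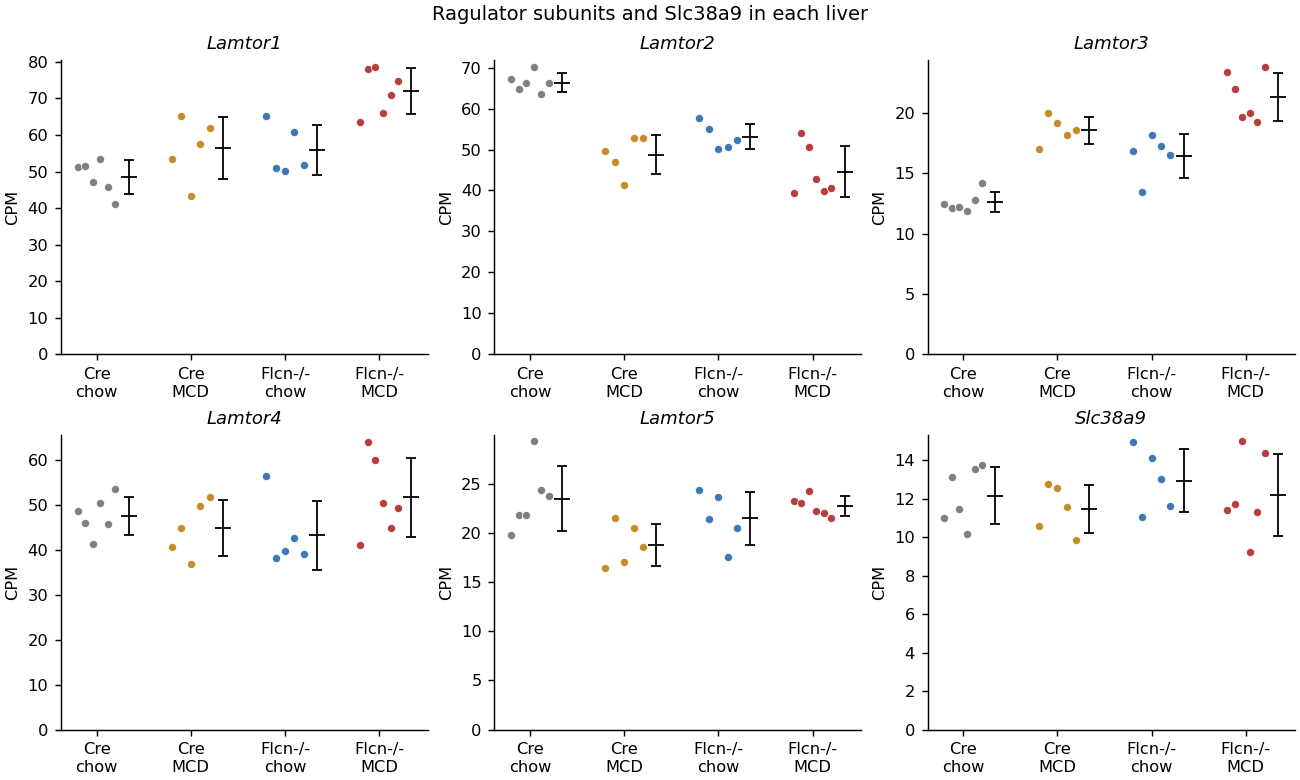
Level of the 5 Ragulator subunit genes and *Slc38a9* in CPM (y axis, linear, from 0) in each of the 22 livers by group (x axis), with 1 point per mouse and the mean ± SD beside each group. *Lamtor2* is highest in Cre mice on chow (63.7 to 70.2 CPM), *Lamtor3* is lowest there (11.9 to 14.2 CPM) and *Slc38a9* spans 9.26 to 15.0 CPM over all groups.

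Of the 9 members tested, 3 were higher (*Rragc*, *Rragd* and *Lamtor3*) and 1 lower (*Lamtor2*) in liver-*Flcn*-/- mice on chow, where 5.52% of all tested genes were called higher and 3.1% lower. On MCD 3 were higher (*Rragc*, *Rragd* and *Lamtor1*) and 0 lower, against 8.06 and 8.53% of all tested genes. The median log2 fold change of the 9 members was 0.14 on chow and 0.21 on MCD, beside -0.03 and -0.01 over all tested genes. Without the 5 chow libraries under 75% unique mapping only *Rragd* was called on chow, and without the 5 female libraries with Y-linked reads 3 members were called on chow and 2 on MCD. Over all 14062 tested genes these fits called 494 and 463 on chow, against 1212 with all mice. On MCD 1194 genes were called without the females with Y-linked reads, against 2333 with all mice. Without the low-mapping libraries the log2 fold changes on chow were 0.36 for *Rragc*, 0.38 for *Lamtor3* and -0.35 for *Lamtor2*. With diet, 3 members rose and 2 fell in Cre mice, where 29.3% of tested genes rose and 28.2% fell. The liver-*Flcn*-/- mice had 4 members that rose with diet and 1 that fell, where 22.5% of tested genes rose and 22.5% fell. With 9 members and such shares of all genes, these diet counts are no result about the members. No member was called in the interaction of genotype and diet by edgeR, limma-voom or DESeq2, where 8.83% of genes were called by edgeR. At an unadjusted p under 0.05 the interaction of 2 members passed in edgeR, *Rragd* and *Lamtor5*. The share of all tested genes at that threshold was not counted, so this is no result about the members. The 2 genotype comparisons share no mouse, but each diet comparison shares its chow or MCD mice with a genotype comparison.

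**Figure D4:**
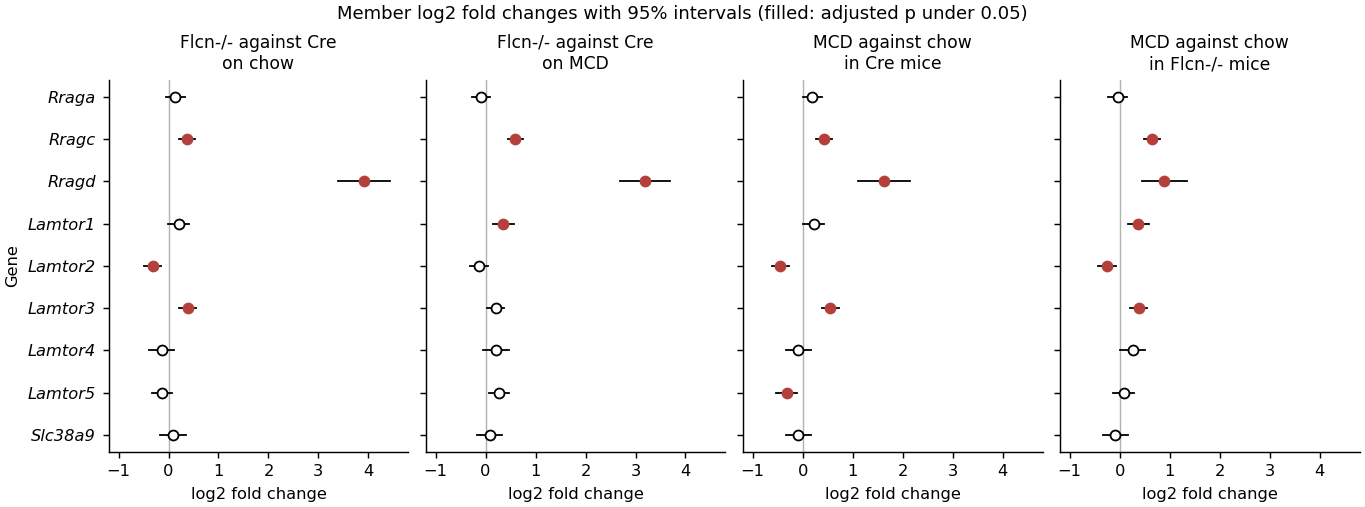
Log2 fold change (x axis) of the 9 tested members (y axis) with its 95% interval as a line in the 2 genotype and 2 diet comparisons, filled where the adjusted p from edgeR was under 0.05. *Rragd* stands at 3.91 and 3.18 in the genotype comparisons, and each other member lies between -0.44 and 0.65 in all 4.

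Per kb of exon, which allows levels of different genes to be set beside each other, the order in Cre mice on chow was *Lamtor2* (54.5 CPM per kb on average), *Lamtor4* (36.6), *Lamtor5* (26.6), *Rraga* (23.1), *Lamtor1* (15.1), *Rragc* (14.2), *Lamtor3* (3.04), *Slc38a9* (0.729), *Rragd* (0.421) and *Rragb* (0.036). In this order *Lamtor4* and *Lamtor5*, *Lamtor5* and *Rraga*, and *Lamtor1* and *Rragc* overlapped between mice, and the other neighbours did not. In liver-*Flcn*-/- mice on MCD *Rragd* had moved from the ninth to the seventh place at 11.9 CPM per kb, apart from its neighbours *Lamtor1* (22.4) and *Lamtor3* (5.14). There *Rragc* (29.0) took the third place behind *Lamtor4* (39.8) and *Lamtor2* (36.6), which overlapped each other. *Rragc* overlapped both of these as well as *Lamtor5* (25.7) and *Rraga* (24.8). The lengths join the exons of all annotated transcripts, so the level of a gene is set too low where the liver uses part of them, and the longest, that of *Slc38a9*, came to 16704 bases.

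The genes that act on the Rags, beside them or after them in the pathway were described from a list of 44, of which 43 were in the table and tested. In liver-*Flcn*-/- mice on chow 0 were higher and 2 lower, *Flcn* itself and *Mios* (log2 fold change -0.28, SE 0.084, edgeR adjusted p = 0.040), a subunit of GATOR2, which relays amino acid signals to the Rags. On MCD 4 were higher and 3 lower. Among all tested genes 5.52% were higher and 3.1% lower on chow, and 8.06 and 8.53% on MCD, so these counts of 43 lie near the background. The higher ones were the folliculin partners *Fnip2* (1.33, SE 0.268, adjusted p = 0.0017) and *Fnip1* (0.58, SE 0.149, adjusted p = 0.0095), the mTORC1 inhibitor subunit *Tsc1* (0.75, SE 0.119, adjusted p = 0.00019) and *Deptor* (0.43), which binds mTOR. The lower ones were the arginine sensor *Castor1* (-0.70, SE 0.211, adjusted p = 0.026) and 2 genes of the MiT-TFE factors, *Mitf* (-0.48) and *Tfe3* (-0.29), all by edgeR. *Tfeb* was at a log2 fold change of -0.07 on chow and -0.13 on MCD and did not pass (edgeR adjusted p = 0.80 and 0.58). The 3 KICSTOR, 3 GATOR1 and 8 BORC genes held no call in either genotype comparison.

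In MCD-fed livers *Fnip2* had lowest, median and highest levels of 9.61, 16.3 and 39.2 CPM in Cre mice and 34.1, 43.1 and 65.4 CPM in liver-*Flcn*-/- mice, so that 1 Cre mouse lay within the range of liver-*Flcn*-/- mice. *Tsc1* was at 18.2, 21.2 and 25.4 CPM and at 29.4, 36.3 and 43.9 CPM in the same groups, without overlap. On chow *Fnip2* differed by 0.79 and *Fnip1* by 0.40, and neither passed (edgeR adjusted p = 0.064 and 0.096). The median log2 fold change of the 43 partners was -0.04 on chow and -0.02 on MCD, close to that of all tested genes. The call of *Mios* was lost in many alternatives, such as limma-voom (adjusted p = 0.070), edgeR without the filter on low counts (0.24) and edgeR without any of the 6 Cre mice on chow, Cre mouse 5 on MCD or liver-*Flcn*-/- mouse 1, 3, 4 or 5 on chow (0.050 to 0.12). That of *Castor1* was lost in edgeR without Cre mouse 1 (adjusted p = 0.053), Cre mouse 4 (0.078) or liver-*Flcn*-/- mouse 6 (0.066) on MCD, without the filter on low counts (0.072) and without the female libraries with Y-linked reads (0.10).

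With diet 11 partners rose and 14 fell in Cre mice, while in liver-*Flcn*-/- mice 10 rose and 8 fell. These counts of 43 are near the shares of all tested genes given above (29.3 and 28.2% in Cre mice, 22.5 and 22.5% with *Flcn* deleted). The sestrin *Sesn3*, of a family that binds GATOR2, fell by 1.16 in Cre mice (SE 0.132, edgeR adjusted p = 2.3e-07) and by 1.42 in liver-*Flcn*-/- mice (SE 0.129, edgeR adjusted p = 2.4e-08), from medians of 34.9 and 41.4 CPM to 15.4 CPM in both. Its paralog *Sesn2*, a leucine sensor, rose by 0.78 in Cre mice (SE 0.21, edgeR adjusted p = 0.0033), a call that was lost without the 5 low-mapping libraries (0.47, adjusted p = 0.064) and with the uniquely mapped share as a covariate (0.46, adjusted p = 0.076). The mTORC1 subunit *Mlst8* rose by 0.74 and 0.61 and the kinase *Mtor* by 0.63 and 0.64 in the 2 genotypes, while *Castor2*, the paralog of *Castor1*, fell by 0.85 in liver-*Flcn*-/- mice and *Deptor* by 0.87 in Cre mice, all by edgeR and on the log2 scale. In the interaction 2 partners passed upward, *Deptor* (0.61) and *Kxd1* (0.45), and *Castor1* passed downward (-1.24), a count of 3 in 43 beside 8.83% of all tested genes. *Deptor*, *Mitf*, *Tfe3* and *Tfeb* in the genotype comparisons and *Mtor* in Cre mice were named after their values were seen.

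**Figure D5:**
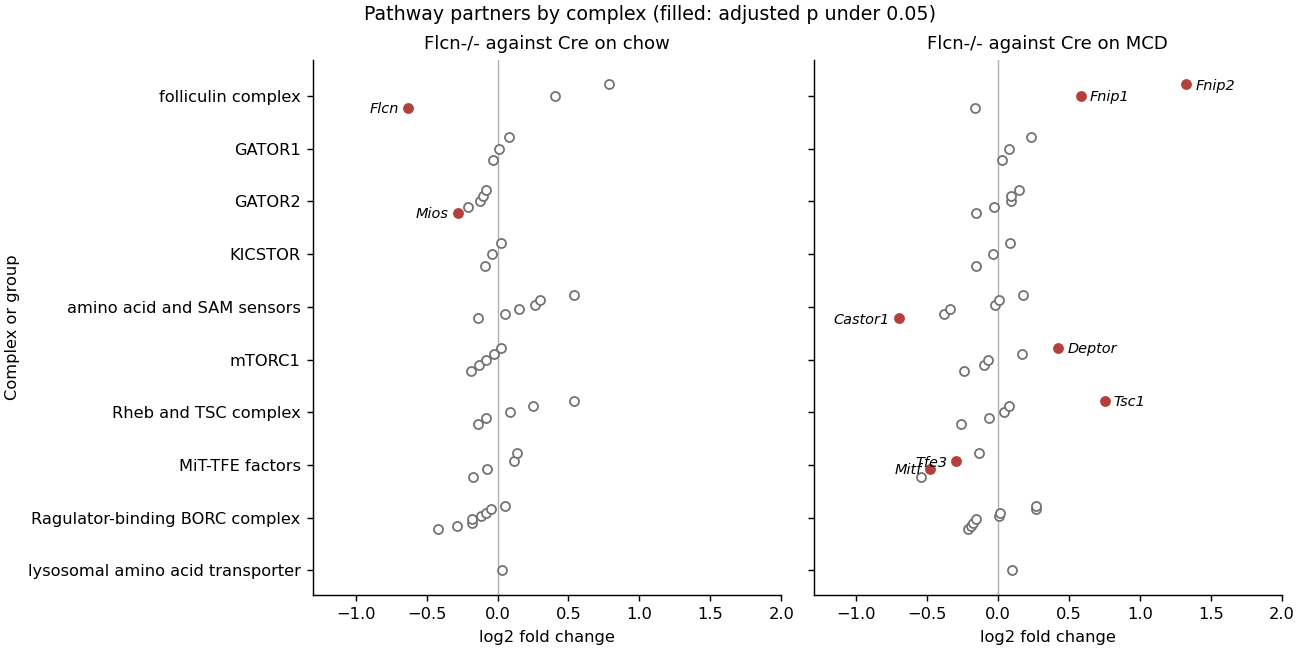
Log2 fold change of liver-*Flcn*-/- over Cre mice (x axis) of the 43 tested pathway partners, grouped by complex (y axis), on chow (left) and MCD (right), with 1 point per gene, filled and named where the adjusted p from edgeR was under 0.05. On chow 2 genes pass, both lower, and on MCD 4 pass upward and 3 downward, with *Fnip2* farthest at 1.33.

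A list of 20 genes known as MiT-TFE targets was set beside the members. In liver-*Flcn*-/- mice 7 were higher and 0 lower on chow, and 11 were higher and 0 lower on MCD, with median log2 fold changes of 0.32 and 0.48 beside -0.03 and -0.01 over all tested genes. The share of all tested genes called higher was 5.52% on chow and 8.06% on MCD, and the share called lower was 3.1 and 8.53%. The higher targets included the lysosomal hydrolases *Hexa* (1.23 on chow, SE 0.126, adjusted p = 9.5e-07) and *Ctsa* (1.15 on chow, SE 0.119, adjusted p = 1.1e-06), by edgeR, and on MCD the autophagy gene *Gabarapl1* (0.91, SE 0.14, adjusted p = 0.00013). On MCD *Neu1* (0.82, edgeR adjusted p = 0.013) was also among the 4 largest. The 7 called on chow include *Gpnmb*, whose fitted value of 3.04 rests on few chow reads and is given as a description. *Gpnmb*, a membrane glycoprotein of macrophages, was at 0.467 to 4.08 CPM in liver-*Flcn*-/- mice on chow, a low level, and its call was lost with limma-voom (adjusted p = 0.22), without the 5 low-mapping libraries (0.064) and without the 5 female libraries with Y-linked reads (0.061). With MCD 10 targets rose and 2 fell in Cre mice, while 12 rose and 0 fell in the liver-*Flcn*-/- group, of 20 in each. Among all tested genes 29.3% rose and 28.2% fell in the former and 22.5% each way in the latter. *Atp6v0d2* rose by 2.24 and 1.78, *Ctsd* by 0.97 in Cre mice, *Sqstm1* by 0.87 in each genotype and *Atp6v1h* by 0.73 in liver-*Flcn*-/- mice, all by edgeR and on the log2 scale. *Gpnmb* was at 0.0791 to 0.677 CPM in Cre mice on chow, 0.467 to 4.08 CPM in liver-*Flcn*-/- mice on chow and at least 47.8 CPM in each MCD mouse. It passed the filter on low counts through the MCD groups. Its fitted difference on chow (3.04) and diet responses (8.70 and 5.75) therefore depend on the few chow reads and set no order among the targets.

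The genes whose pattern over the 22 livers was most like that of *Rragd* were found by the mean absolute difference of log2(CPM + 0.5) after each gene was centred on its mean, among 12846 genes. The 8 nearest were *Renbp* (0.403), *Gm10804* (0.472), *Ogdhl* (0.536), *Gm2990* (0.559), *Cln6* (0.569), *Anxa8* (0.571), *Plin4* (0.586) and *Ephb2* (0.607), where the median over all genes was 1.76 and the next gene stood at 0.648. *Renbp*, which encodes an enzyme of amino sugar metabolism, was at 3.98, 7.93, 37.4 and 65.3 CPM on average in Cre mice on chow, Cre mice on MCD, liver-*Flcn*-/- mice on chow and liver-*Flcn*-/- mice on MCD. *Cln6*, a membrane protein needed for lysosomal function, was at 3.07, 23.3, 35.5 and 91.2 CPM, and *Plin4*, a lipid droplet coat protein, at 1.86, 22.7, 53.8 and 119 CPM in the same order. All 8 were higher in liver-*Flcn*-/- mice on both diets, which their choice makes likely, so these values are a description. In *Rragd*, *Renbp*, *Cln6* and *Plin4* the lowest liver-*Flcn*-/- mouse on chow was mouse 2, at 17.2, 19.4, 20.4 and 29.2 CPM, which was one of the female libraries with Y-linked reads. It was also the lowest for *Gm10804* and *Gm2990*, while for *Ogdhl* the lowest was mouse 4 and for *Anxa8* and *Ephb2* it was mouse 5.

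The libraries are of whole liver, so fewer cells of a type and less RNA per cell cannot be told apart. The 8 hepatocyte markers, led by *Alb*, were present in each library. Their median sums were 133609 CPM in Cre mice on chow and 99187 CPM on MCD, and 117139 and 73505 CPM in liver-*Flcn*-/- mice. The sums overlapped between genotypes on chow (116661 to 161716 CPM in Cre mice against 88896 to 131235 CPM in liver-*Flcn*-/- mice). They also overlapped on MCD (69326 to 107902 against 63196 to 85002 CPM). Of the hepatocyte markers 1 was lower in liver-*Flcn*-/- mice on chow and 2 on MCD, and 6 were lower with MCD in each genotype. Among markers of other cells, on chow 2 of 8 macrophage, 2 of 6 cholangiocyte, 1 of 8 endothelial and 1 of 5 erythroid markers were higher in liver-*Flcn*-/- mice, and none of the stellate, lymphocyte, neutrophil, muscle, adipocyte or pancreas markers passed. *Gpnmb*, with few reads on chow, is on both the macrophage and the MiT-TFE target list. It is among the macrophage markers called higher on chow and with MCD. Summed over their lists, cholangiocyte markers, led by *Spp1*, had medians of 57.5 CPM in Cre mice and 117 CPM in liver-*Flcn*-/- mice on chow, and macrophage markers, led by *Cd5l*, had medians of 460 and 512 CPM. On MCD 5 of 8 stellate, 2 of 8 macrophage, 1 of 4 neutrophil and 8 of 8 muscle markers were lower in liver-*Flcn*-/- mice, and 2 of 6 cholangiocyte and 1 of 8 endothelial markers were higher, with 0 calls for lymphocyte, erythroid, adipocyte and pancreas markers. The muscle calls here and with MCD in Cre mice follow mostly 1 liver and are given as a description. Over the muscle markers Cre mouse 3 on MCD held 2664 CPM, and Cre mice 1, 2, 4 and 5 held 16.8, 2.20, 132 and 1.18 CPM. Stellate markers, led by *Dcn*, had summed medians of 610 CPM in Cre mice and 406 CPM in liver-*Flcn*-/- mice on MCD. With MCD in Cre mice 6 of 8 stellate, 3 of 6 cholangiocyte, 3 of 8 macrophage, 4 of 4 neutrophil, 3 of 5 erythroid, 8 of 8 muscle, 1 of 8 endothelial, 1 of 7 lymphocyte and 1 of 1 tested adipocyte markers rose, and 4 of 8 endothelial, 1 of 8 macrophage and 1 of 1 tested pancreas markers fell. The adipocyte sums, led by *Cidec*, had medians of 0.978 CPM on chow and 105 CPM on MCD in Cre mice. Only 1 of the 6 adipocyte and 1 of the 6 pancreas markers passed the filter on low counts. These 2 lists therefore do not show a change in the number of such cells. With MCD in liver-*Flcn*-/- mice 3 of 4 neutrophil, 2 of 8 macrophage, 1 of 8 stellate and 1 of 1 tested adipocyte markers rose, while 6 of 8 endothelial, 3 of 8 macrophage, 3 of 7 lymphocyte, 1 of 8 stellate, 1 of 5 erythroid and 1 of 1 tested pancreas markers fell, and no cholangiocyte or muscle marker was called by edgeR. The adipocyte markers *Plin1* and *Lep* were at 0 on chow, and of the pancreas markers *Amy2a1* was at 0 in every group. Among all tested genes 5.52% were called higher and 3.1% lower in liver-*Flcn*-/- mice on chow, and 8.06 and 8.53% on MCD. With MCD 29.3% rose and 28.2% fell in Cre mice, and 22.5% went each way in liver-*Flcn*-/- mice. The lists are short, so marker counts near these shares are no result about the cell types. The part of any marker shift in the members' levels was not tested.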

How the data were processed

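The members and lists were chosen with earlier results of these data known. Poly(A) RNA of 22 livers was sequenced by the authors (KAPA mRNA HyperPrep, single-end reads of 75 bases). Per the labels and the study's methods, reads were trimmed with Trimmomatic, aligned to GRCm38 with STAR and counted with HTSeq. The deposited values are raw read counts per gene. The annotation release, the strand setting and any use of the molecular identifiers are not given in the sources used here. Each column is a separate mouse and maps to 1 sample by its title.

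The 14062 genes whose counts averaged 10 or more were fitted in 1 model of 4 groups with TMM factors and edgeR 4.0.16 (R 4.3.3), with Benjamini-Hochberg adjustment and a threshold of 0.05. The study used limma, and here limma-voom (limma 3.58.1) and DESeq2 1.42.0 were alternatives, with RLE factors, other filters, fits within the groups compared, a replicate block, sex, the uniquely mapped share from the study's library statistics and left-out libraries. CPM used TMM effective library sizes, and lengths were joined exons of GENCODE M21. Single values were compared by two-sided exact permutation tests. The fits were tested on simulated data. Named partners and targets were the 4 with the largest absolute log2 fold change among those called in a comparison with a mean of at least 1 CPM, of which 1 target is not reported here. Depth was 13751347 to 21144388 reads per library, and small counts such as those of *Rragb* carry counting error.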

Additional observations from a re-analysis of the deposited data

Results flagged for a closer look

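*Lamtor4* in liver-*Flcn*-/- mouse 1 on chow, at 56.7 CPM, stood apart from the other 4 mice of its group, which lay between 38.3 and 42.8 CPM. It was the single outlying library in 52 groups of values examined, where chance would give about 2.6.

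The response to MCD differed between genotypes in 3 of 43 partners and 2 of 20 MiT-TFE targets, beside 8.83% of all tested genes, so their number is no result about the lists. The interaction was -1.24 for *Castor1* (SE 0.304, edgeR adjusted p = 0.015), whose product inhibits GATOR2 until it binds arginine. It was 0.61 for *Deptor* (SE 0.175, edgeR adjusted p = 0.032), which fell by 0.87 with MCD in Cre mice. It was 0.45 for *Kxd1* (SE 0.132, edgeR adjusted p = 0.038), a subunit of the BORC complex that positions lysosomes. Among MiT-TFE targets it was 0.85 for the proton pump subunit *Atp6v1h* (SE 0.144, edgeR adjusted p = 0.0014) and -2.95 for *Gpnmb* (SE 0.824, edgeR adjusted p = 0.029). The last value rests on the few *Gpnmb* reads on chow (0.0791 to 0.677 CPM in Cre mice), since the gene passed the filter on low counts through the MCD groups where it is high, and it is given as a description. Without the 5 female libraries with Y-linked reads none of the 5 passed, in a fit where 84 of 14062 genes did, against 1242 with all mice. There the interaction was -1.01 for *Castor1* (edgeR adjusted p = 0.23), 0.58 for *Deptor* (0.21) and 0.32 for *Kxd1* (0.30). It was 0.77 for *Atp6v1h* (edgeR adjusted p = 0.054) and -2.71 for *Gpnmb* (0.18). *Kxd1* was also lost in 12 of 22 fits that left out 1 mouse (adjusted p up to 0.075) and without the filter on low counts (0.11), and *Deptor* in 7 of 22 such fits (up to 0.065) and without that filter (0.061). *Gpnmb* was lost with limma-voom (0.25), without the 5 chow libraries under 75% unique mapping (0.076), with the uniquely mapped share as a covariate (0.061) and without liver-*Flcn*-/- mouse 4 (0.064) or 5 (0.059) on chow. *Castor1* and *Atp6v1h* passed in each of the 22 fits.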

How the results depend on the processing

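*Rragd* kept its direction and its call between genotypes under every alternative run on each diet, and no called value changed sign. Uncalled log2 fold changes close to 0 did, in *Rraga* (0.02 with diet in liver-*Flcn*-/- mice) and *Lamtor4* and *Slc38a9* (0.04 each with diet in Cre mice) with the uniquely mapped share as covariate, and in *Lamtor5* (-0.03 with diet in liver-*Flcn*-/- mice) without the females with Y-linked reads, and *Slc38a9* did so in other comparisons too. Without the 5 chow libraries under 75% unique mapping, which leaves females on chow, 1 member was called between genotypes on chow and 1 in the interaction, the *Rragd* share differed by 19.4 points and the *Rragb* share by 1.64 points on chow, each with p = 0.1, the smallest possible exact p for 3 against 3 mice. That fit called 494 of 14062 genes between genotypes on chow and 779 in the interaction, against 1212 and 1242 with all mice. Partners called between genotypes on chow (2 in the report) were 1 with limma-voom, without the low-count filter, with at least 10 counts in every library and with the uniquely mapped share as covariate, 1 without those 5 libraries (a gene that was higher, with *Flcn* and *Mios* both lost), and 4 without the liver with muscle RNA. Over all tested genes the calls on chow numbered 1020, 934 of 32124, 860 of 11571, 1384, 494 and 1429 in the same order. Partners called in the interaction (3) were 1 without the filter and with the replicate block and 5 without the liver with muscle RNA. Over all tested genes the interaction called 852 of 32124, 552 and 1426 in these fits. Leaving out the 5 female libraries with Y-linked reads, an alternative chosen after seeing the data like the single-mouse fits of *Rragb*, gave 0 and 0 for these partner counts, 11 with diet in liver-*Flcn*-/- mice and 4 between genotypes on MCD. In the same order it called 463, 84, 4236 and 1194 of 14062 genes, against 1212, 1242, 6328 and 2333 with all mice. Replicate numbers are shared between groups by name only, since no set of pairs had every correlation above 0.1 (mean -0.00454 over 31 pairs). With that pairing as a block, edgeR lost the calls of *Flcn* (-0.57, adjusted p = 0.053) and *Mios* (0.077) on chow and of *Deptor* (0.093), *Kxd1* (0.069) and *Gpnmb* (0.084) in the interaction, and sign-flip tests of 5 pairs gave share differences of 22.2 and 21.9 points for *Rragd* and 1.33 and 1.11 points for *Rragb* on chow and MCD, each with p = 0.0625, the smallest possible exact p for 5 pairs. With each mouse left out in turn, members called numbered 3 to 4 between genotypes on chow, 2 to 4 on MCD, 5 to 7 with diet in Cre mice, 5 to 6 in liver-*Flcn*-/- mice and 0 to 1 in the interaction, and partners called numbered 0 to 4, 4 to 8, 21 to 26, 15 to 21 and 1 to 5. Of all 14062 genes 670 to 1429, 1773 to 2460, 7620 to 8209, 5616 to 6586 and 819 to 1426 were called. The same fits gave *Rragd* shares that differed by 21.3 to 24.5 points on chow and 21.8 to 23.5 on MCD, *Rragb* shares that differed by 0.883 to 1.54 and 0.813 to 1.14 points, and *Rragd* log2 fold changes of 3.82 to 4.08 and 3.04 to 3.36. The fit within the groups compared gives no interaction of its own. Depth limits *Rragb* most, with 8 reads in all over 6 Cre mice on chow.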
